A study of Rattus norvegicus with 8 samples.

Results

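Collagen chains and the proteins that modify collagen were followed here as a group of 35 genes among 23360 genes tested. The group was matched by gene name and not by measured differences, although earlier results of these data were known when it was chosen. It took every collagen chain named in the scanner files, together with P4ha1, P4ha2, P4ha3, Plod1, Plod2, Plod3, Lox, Loxl1, Loxl2, Serpinh1 and Pcolce. In all 43 genes with 68 probes matched, and a gene was kept if a probe was well above background in either dye on at least 4 of the 8 arrays. The 35 genes kept were 24 chains and 11 modifying genes. The other 8 genes, Col2a1, Col8a2, Col10a1, Col12a1, Col14a1, Col17a1, Col22a1 and Col27a1, did not reach the minimum. Nearest to it were Col12a1 and Col8a2, each seen in the prostate channel on 3 control arrays and 0 treated arrays. Just inside were Col4a4, seen on 3 control arrays and 1 treated array, and Col9a3, on 3 and 2. A further 2 chains, Col6a4 and Col20a1, stand in the files under locus names only and were not taken.

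Collagens are trimers of alpha chains wound into a helix in which glycine recurs at a fixed step. Types I, III, V and XI assemble into the fibrils of the stroma, whereas type IV chains form the sheet of the basement membrane beneath the prostatic epithelium and around smooth muscle and vessels. Inside the cell, prolyl hydroxylases stabilise the helix, lysyl hydroxylases prepare the sites of cross-links and sugars, and Hsp47 (Serpinh1) holds the folded molecule until export. Outside the cell, propeptides are removed with the help of Pcolce, and lysyl oxidases cross-link the fibrils.

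The prostates came from male TRAP rats, a transgenic model of prostate carcinoma in which, as background, a viral large T antigen is driven by the probasin promoter of the prostatic epithelium. All 8 rats were heterozygous for the transgene, of SD strain and 15 weeks old. Control rats 102, 103, 104 and 106 had basal diet and tap water, and rats 302, 303, 305 and 306 drank water with telmisartan, which blocks angiotensin II signalling, at a dose of 10 mg/kg each day for 12 weeks from 3 weeks of age. Each ventral prostate was labelled with Cy5 and hybridised on its own array against Cy3-labelled ventral prostate of normal male F344 rats at 6 weeks of age. A value is log2(Cy5/Cy3), called the level below, so that 0 is equality with the reference and 1 is a 2-fold excess in the TRAP prostate. Reference and TRAP prostate differ in strain, age, transgene and dye at once, so levels are described without a test. Differences between the rat groups come from limma with Benjamini-Hochberg adjustment over all genes.

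The share of spots well above background in Cy5 ran from 64.7% to 76.8% across the controls and from 59.2% to 68.1% across the treated (exact permutation test, two-sided p = 0.0571). Of the 35 genes, 31 were above background in both dyes on all 8 arrays. Skeletal muscle markers lay far below the reference, with a mean over 5 genes of -4.50 to -4.33 in control and -4.51 to -4.35 in treated rats, and smooth muscle markers lay at -1.58 to -1.03 and -1.25 to -0.998 over 7 genes. Luminal epithelial markers lay nearer to 0, at -0.39 to -0.02 in control and -0.26 to 0.0014 in treated rats. The part of these tissue differences in the levels was not tested.

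The probes themselves show what was measured. In 3 of the 68 probes the helical repeat can be read directly, since at least 5 of 6 possible glycine codons (GGN, in capitals) follow each other every 9 bases. These probes are shown because they carry the sequence that defines the family.
Col4a5, dimmer probe: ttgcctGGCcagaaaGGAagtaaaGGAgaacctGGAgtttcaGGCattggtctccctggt
Col9a1, dimmer probe: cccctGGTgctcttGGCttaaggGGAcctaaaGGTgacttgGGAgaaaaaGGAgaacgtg
Col9a3: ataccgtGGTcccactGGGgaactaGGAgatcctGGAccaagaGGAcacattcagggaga
Such a run was found in 4.41% of the probes of these genes and in 10 of the 41012 probes on the array, or 0.0244%. All 3 were dim: in the Cy3 reference each was above background on 0 arrays. The other genes are read mostly outside such repeats, so a value below is that of 1 stretch of 60 bases.

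Relative to normal prostate, most collagen chains were low. In control rats 17 of 24 chains had a mean below the reference, and so had 6 of 8 fibrillar chains and 4 of 4 type IV chains, where 45.1% of all genes did. Among the type IV chains, Col4a4 was above background in the reference on 0 arrays, so its place in that count is not firm. The median level was -0.67 for fibrillar chains, -0.51 for type IV chains and -0.23 for all chains, against 0.06 for all genes. These directions depend on the scaling. With median centring in place of loess the median of all genes moved to 0.66, and the fibrillar, type IV and all-chain medians were 0.31, 0.10 and 0.27. Relative to the median of all genes, fibrillar chains stood at -0.73 with loess and -0.34 with median centring, and type IV chains at -0.57 and -0.56. In each of the 5 background and scaling settings compared, 6 of 8 fibrillar chains and 4 of 4 type IV chains lay below the median of all genes. In a whole lobe, fewer cells of a type and less RNA per cell cannot be told apart.

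Col1a1, a chain of type I collagen, the main collagen of stroma, was read by its brightest probe. Its levels were -2.24, -1.43, -1.73 and -1.70 in control rats 102, 103, 104 and 106 and -1.84, -1.67, -2.15 and -2.62 in treated rats 302, 303, 305 and 306. All 8 rats lay below 2-fold, and the groups overlapped. The control mean of -1.77 ± 0.34 (SD, n = 4) is a 3.42-fold excess in the reference with loess, and with median centring the level was -0.41. Col5a3, a minor chain that regulates fibrils, averaged -1.68 ± 0.30 in control rats and ran from -1.96 to -1.17 over all 8. It lay above Col1a1 with loess and below it with the scanner's ratios (-2.17 against -1.76) and with median centring (-0.82 against -0.41). The third gene past 2-fold was Col16a1, a chain that attaches to fibril surfaces, at -1.29 ± 0.10 with a range of -1.63 to -1.05. A dimmer Col16a1 probe gave a control mean of -0.74 ± 0.25, with no rat below 2-fold. By their brightest probes these 3 genes were below 2-fold in all 4 control rats and in all 8 rats, where 4.47% and 3.54% of all genes were. With median centring, which moved the median of all genes to 0.66, 0 of the 35 genes lay below 2-fold in all control rats.

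Col3a1, the chain of type III collagen, had levels of -1.46, -1.42, -1.03 and -0.92 in control and -1.35, -1.23, -0.93 and -1.47 in treated rats, in the same order. Every rat was below the reference, and the groups overlapped throughout. Col1a2, the partner chain of Col1a1, had -0.36, -0.27, -1.04 and -1.09 in control and -0.17, -0.36, -1.12 and -1.55 in treated rats. In both groups the rats on the first slide were the higher pair, with slide means of -0.29 and -1.20. The type V chains Col5a1 and Col5a2, which set fibril diameter, both averaged -0.65 in control rats (SD 0.19 and 0.06, n = 4 each). The type XI chains did not share the low levels: Col11a1 averaged 0.13 ± 0.43 and Col11a2 0.17 ± 0.05, the latter above the reference in 8 of 8 rats.

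**Figure D1:**
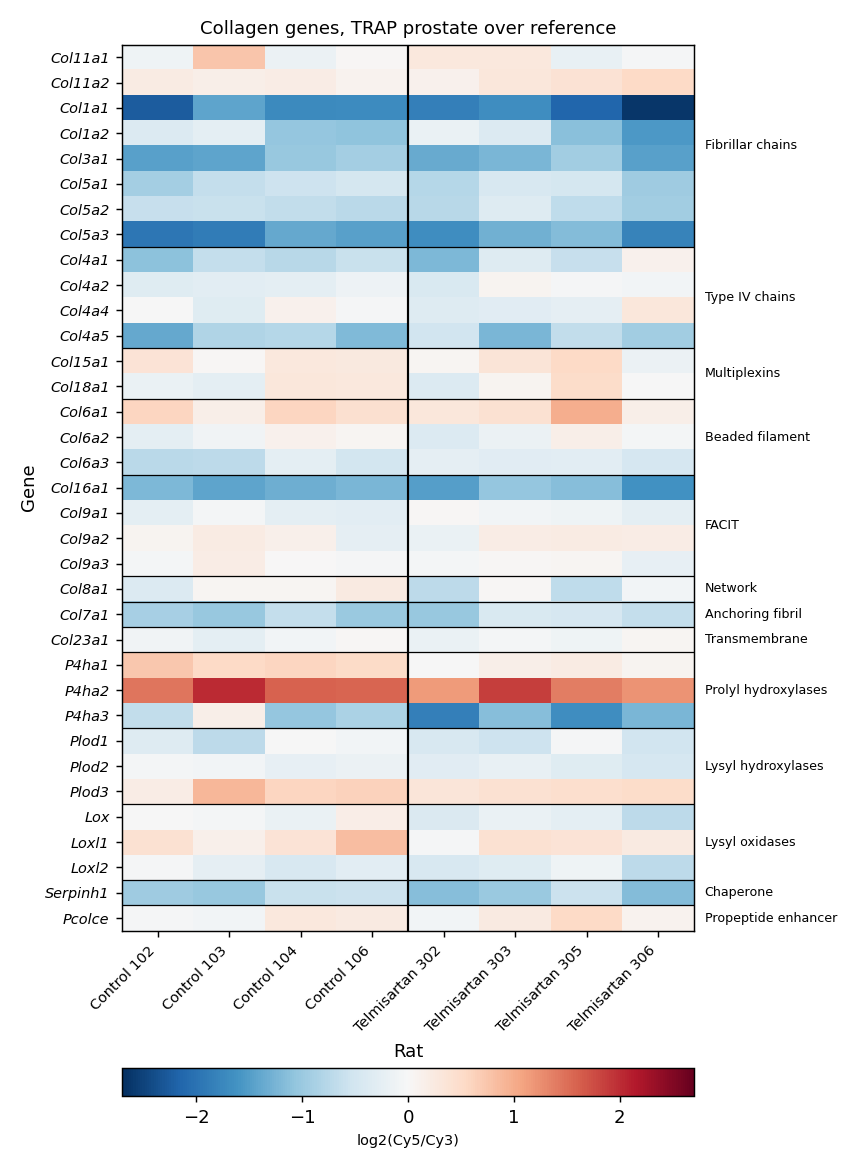
The 35 genes (rows, ordered by class) in the 8 rats (columns, controls left of the black line), coloured by log2(Cy5/Cy3) with blue below and red above the reference. Col1a1, Col3a1, Col5a3 and Col16a1 are blue in every rat and P4ha2 is red in every rat, while P4ha1 and P4ha3 differ in shade across the line.

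Type IV chains were less far below the reference than fibrillar chains with the loess scaling. Col4a1, which with Col4a2 makes the ubiquitous basement membrane trimer, had levels of -1.11, -0.64, -0.76 and -0.60 in control and -1.22, -0.35, -0.61 and 0.11 in treated rats. The last value, of rat 306, comes from a spot that lost its signal: raw Cy5 was 529 there against at least 20882 on the other arrays, and raw Cy3 was 207 against at least 3440, without a flag. A dimmer Col4a1 probe gave -0.66, -0.52, -0.43 and -0.61 in control and -0.56, -0.67, -0.35 and -0.68 in treated rats, with no rat above the reference. Of 408 array values of these genes' probes, that spot was the 1 that lay more than 1 log2 unit from its probe's median brightness.

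Col4a2 stood closer to the reference, at -0.32, -0.28, -0.26 and -0.15 in control and -0.41, 0.07, -0.04 and -0.08 in treated rats. Its start lies opposite that of Col4a1, and the 76 bases between both starts are shown because the chains share them (RefSeq, GRCr8, chr16:84885521-84885596, plus strand, the GC box in capitals).
Between Col4a1 and Col4a2: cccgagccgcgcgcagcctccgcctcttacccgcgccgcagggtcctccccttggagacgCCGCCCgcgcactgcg
It holds 1 GC box, GGGCGG read on the minus strand, a motif present on either strand in 18.1% of 33469 promoters over the same length. It holds 0 copies of ACGTG, a form of the core of the hypoxia response element, present in 5.95%. The other form, GCGTG, was not searched.

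Col4a5, a chain of the specialised basement membrane network, had -1.38, -0.81, -0.78 and -1.18 in control and -0.52, -1.24, -0.66 and -0.94 in treated rats, below the reference in all. Its dimmer probe, the one printed above with its glycine repeat, gave a control mean of 0.06 with 0 reference arrays above background. Col4a4 had -0.00030, -0.33, 0.11 and -0.03 in control and -0.36, -0.30, -0.25 and 0.31 in treated rats. In the reference Col4a4 was above background on 0 arrays, so its place relative to normal prostate is unknown.

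Set against each other within each rat, the mean of the 8 fibrillar chains lay below that of the 4 type IV chains in 8 of 8 rats. The gap was -0.23, -0.15, -0.37 and -0.29 in control rats and -0.14, -0.14, -0.40 and -0.95 in treated rats, in the order given above. Its group means were -0.26 ± 0.09 and -0.41 ± 0.38 (SD, n = 4 each). The widest gap, of rat 306, contains the failed Col4a1 spot; with the dimmer Col4a1 probe the group means were -0.32 and -0.40. Over the chains above background in both dyes on all arrays they were -0.24 and -0.45, and with types XV and XVIII counted as basement membrane they were -0.48 and -0.58. With median centring the sign turned, to 0.22 and 0.20. The order of the classes therefore holds for loess and not for median centring.

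**Figure D2:**
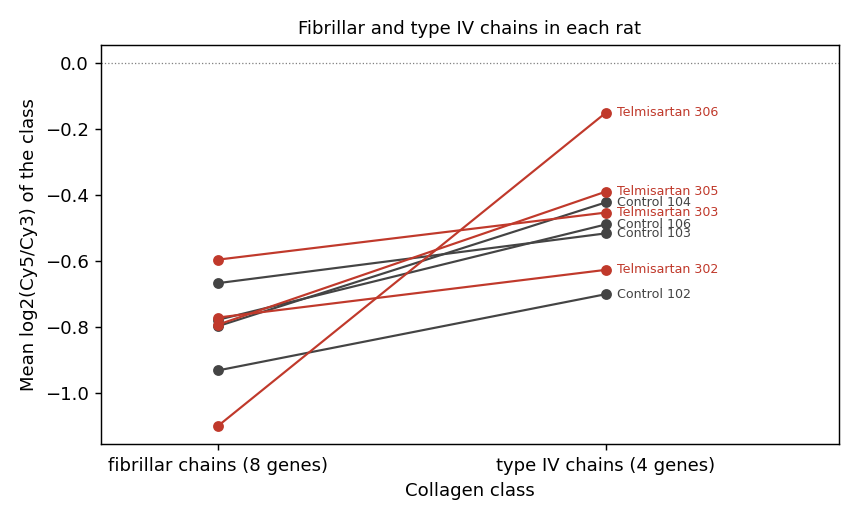
Mean log2(Cy5/Cy3) of the 8 fibrillar and the 4 type IV chains, with 1 line per rat joining its class means (grey, control; red, telmisartan). All 8 lines rise to the right, and the steepest is that of Telmisartan 306, whose gap of -0.95 includes the failed Col4a1 spot.

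Chains of the other classes lay mostly between these extremes. The multiplexins of the basement membrane zone, Col15a1 and Col18a1, whose ends yield restin and endostatin, averaged 0.23 ± 0.14 and 0.04 ± 0.30 in control rats. Among the type VI chains of beaded filaments, Col6a1 averaged 0.44 ± 0.20 and was above the reference in 8 of 8 rats, Col6a2 -0.05 ± 0.17 and Col6a3 -0.54 ± 0.21. The 3 chains belong to 1 trimer, and in control rats their means were in the order Col6a1, Col6a2, Col6a3 with no overlap between Col6a1 and Col6a3. Col7a1, the anchoring fibril chain, averaged -0.89 ± 0.17 and was below the reference in every rat. Col8a1, a network chain of vessels, averaged -0.01 ± 0.26. The type IX chains, which decorate fibrils, were near 0, at -0.22 ± 0.11 for Col9a1, 0.05 ± 0.20 for Col9a2 and 0.03 ± 0.12 for Col9a3, as was the transmembrane chain Col23a1 at -0.10 ± 0.12. For Col9a3 and Col23a1 the reference was above background on 0 and 1 arrays, so their level has no firm base. In all, 10 chains lay below the reference in all 8 rats with loess, where 26.2% of all genes did. The 2 chains above it in all 8 were Col6a1 and Col11a2, and the share of all genes above it was not counted. With median centring, 7 of 24 chains had a control mean below the reference, where 6473 of 23360 genes did.

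The modifying genes lay on both sides of the reference with loess, with 6 of 11 control means below it and a median of -0.02. With median centring 0 of 11 lay below it and the median was 1.21, or 0.56 above the median of all genes, where loess gave -0.08 against that median. P4ha2, a catalytic subunit of prolyl hydroxylase, was the 1 gene above 2-fold in all 4 control rats and in all 8, where 5.15% and 3.70% of all genes were. Its levels were 1.45, 2.02, 1.59 and 1.58 in control and 1.15, 1.87, 1.39 and 1.22 in treated rats. The control mean of 1.66 ± 0.25 is a 3.16-fold excess over normal prostate with loess, and with median centring its level was 2.93. The other catalytic subunits had control means of 0.59 ± 0.10 for P4ha1 and -0.60 ± 0.53 for P4ha3, and with median centring that of P4ha3 turned to 0.30. Plod3, a lysyl hydroxylase that also adds sugars, was above the reference in 8 of 8 rats with a control mean of 0.57 ± 0.29. Serpinh1, the collagen chaperone, was below it in every rat with loess and turned to a control mean of 0.46 with median centring. Its loess levels were -0.96, -1.03, -0.61 and -0.59 in control and -1.16, -1.002, -0.59 and -1.17 in treated rats. Over all 5 settings, P4ha1, P4ha2, Plod3, Loxl1, Pcolce, Col6a1, Col11a1, Col11a2 and Col15a1 had control means above the reference. Of these, Pcolce was at only 0.02 ± 0.18 with the scanner's ratios. Col11a1 was at 0.13 ± 0.43 with loess, with Control 103 at 0.76, and its reference signal was above background on 5 arrays. Below the reference in all settings were Col1a1, Col4a5, Col5a3 and Col7a1, though Col4a5 was at -0.02 ± 0.31 with median centring. Col4a4 and Col23a1 were below it too, but their reference signal was above background on only 0 and 1 arrays. All 5 settings read the brightest probe of a gene. With loess, dimmer probes gave control levels of -1.14 and -0.61 for Col1a1 and 0.06 for Col4a5.

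The comparison of telmisartan with control rats asked whether the drug altered these genes in the tumour-bearing gland. No gene passed: with limma 0 of the 35 genes and 0 of 23360 genes (0.00%) had an adjusted p under 0.05. At an unadjusted p under 0.05 there were 3 of the 35 genes lower and 0 higher in treated rats, where 2.08% of all genes were lower and 2.74% higher. All 3 modify collagen: P4ha1, P4ha3 and Lox. For P4ha1 and P4ha3 every treated rat lay below every control rat, as for 1.22% of all genes, and for 0 of the 35 genes every treated rat lay above, as for 1.50%. Over the modifying genes 10 of 11 differences were below 0, where 50.4% of all genes were, with a median of -0.19 against -0.0013 for all genes. Over the chains 12 of 24 were below 0, with a median of 0.00049. The groups hold 4 separate rats each, so the p-values measure the spread between rats.

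P4ha1, a catalytic subunit of prolyl hydroxylase, had levels of 0.73, 0.55, 0.57 and 0.51 in control rats 102, 103, 104 and 106 and -0.0037, 0.15, 0.22 and 0.08 in treated rats 302, 303, 305 and 306. The groups lay apart, and the nearest rats were Control 106 and Telmisartan 305. The means were 0.59 ± 0.10 and 0.11 ± 0.10, 1.39-fold lower in treated rats (limma difference -0.48, SE 0.10, adjusted p = 0.810). The difference was -0.56 on slide 1 and -0.39 on slide 2, and between -0.51 and -0.43 with any 1 rat left out. It was carried by the prostate channel, where the difference was -0.50, with -0.02 in the reference channel.

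P4ha3, a further catalytic subunit, had levels of -0.65, 0.15, -1.04 and -0.86 in control and -1.84, -1.16, -1.68 and -1.22 in treated rats. Control 103 stood above the other controls, and every treated rat was below every control rat. The means were -0.60 ± 0.53 and -1.48 ± 0.34, 1.83-fold lower in treated rats (limma difference -0.88, SE 0.26, adjusted p = 0.928). On slide 1 the difference was -1.25 and on slide 2 it was -0.50, and without Control 103 it was -0.62. The prostate channel gave -1.04 and the reference channel -0.16. P4ha2 differed by -0.25 (SE 0.18, limma adjusted p = 0.979), with overlap between the groups.

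The starts of the 3 prolyl hydroxylase genes are shown because P4ha1 and P4ha3 stood apart between the groups and P4ha2 did not, with 150 bases before each start (RefSeq, GRCr8, plus strand; ACGTG and GGGCGG in capitals on the strand shown).
P4ha1, chr20:27844896-27845045: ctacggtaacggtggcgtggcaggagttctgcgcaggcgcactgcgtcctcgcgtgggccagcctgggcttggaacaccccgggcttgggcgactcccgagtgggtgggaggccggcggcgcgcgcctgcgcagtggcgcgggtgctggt
P4ha2, chr10:38743744-38743893: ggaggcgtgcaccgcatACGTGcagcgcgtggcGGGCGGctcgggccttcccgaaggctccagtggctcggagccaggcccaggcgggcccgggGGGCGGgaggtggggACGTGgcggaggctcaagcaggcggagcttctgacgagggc
P4ha3, chr1:164040714-164040863: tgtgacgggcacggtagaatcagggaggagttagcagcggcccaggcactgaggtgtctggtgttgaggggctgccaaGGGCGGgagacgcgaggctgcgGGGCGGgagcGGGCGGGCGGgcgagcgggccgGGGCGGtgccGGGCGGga
Both strands were searched. P4ha2 held 2 copies of ACGTG, a form of the core of the hypoxia response element, and 2 of the GC box GGGCGG. P4ha3 held 6 GC boxes of which a pair overlap, and P4ha1 held neither of these motifs. The other form of that core, GCGTG, was not searched, and the sequences shown for P4ha1 and P4ha2 contain it. ACGTG was present in 10.8% and GGGCGG in 26% of 33469 promoters over the same length, and a promoter was listed for 29 of the 35 genes.

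Lox, the main lysyl oxidase, had levels of -0.01, -0.06, -0.18 and 0.17 in control and -0.39, -0.17, -0.25 and -0.70 in treated rats. Telmisartan 303 overlapped Control 104, and the other treated rats lay below every control. The limma difference was -0.36 (SE 0.13, adjusted p = 0.979), with -0.24 on slide 1 and -0.47 on slide 2. A second Lox probe gave -0.29 and also overlapped. The beginning of each probe is printed because Lox is read here from both.
Lox, brighter probe: agccttcaagtttaaacggtgctgaattgt
Lox, dimmer probe: aaaggcaaacggaaaaacaacaaagaaggt
Lox no longer had an unadjusted limma p under 0.05 without Control 106, where its difference was -0.29, without Telmisartan 306, where it was -0.25, with median centring, where it was -0.28, or on either slide alone.

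Plod2, which hydroxylates lysines of the telopeptides, had -0.06, -0.08, -0.22 and -0.15 in control and -0.30, -0.21, -0.33 and -0.44 in treated rats (limma difference -0.19, SE 0.09, adjusted p = 0.979). Only Control 104 and Telmisartan 303 overlapped. A dimmer Plod2 probe, with 0 reference arrays above background, differed by 0.31 in the opposite direction. The remaining modifying genes differed by -0.19 for Loxl1, -0.18 for Serpinh1, -0.15 for Plod3, -0.15 for Loxl2, -0.10 for Plod1 and 0.10 for Pcolce, each with overlap between the groups. Averaged over the 11 genes, the level was 0.06 to 0.18 in control rats and -0.29 to -0.0037 in treated rats. The mean difference was -0.26 on slide 1 and -0.25 on slide 2. Read by the mean of all probes of a gene, 9 of 11 differences were below 0, with a mean of -0.22.

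**Figure D3:**
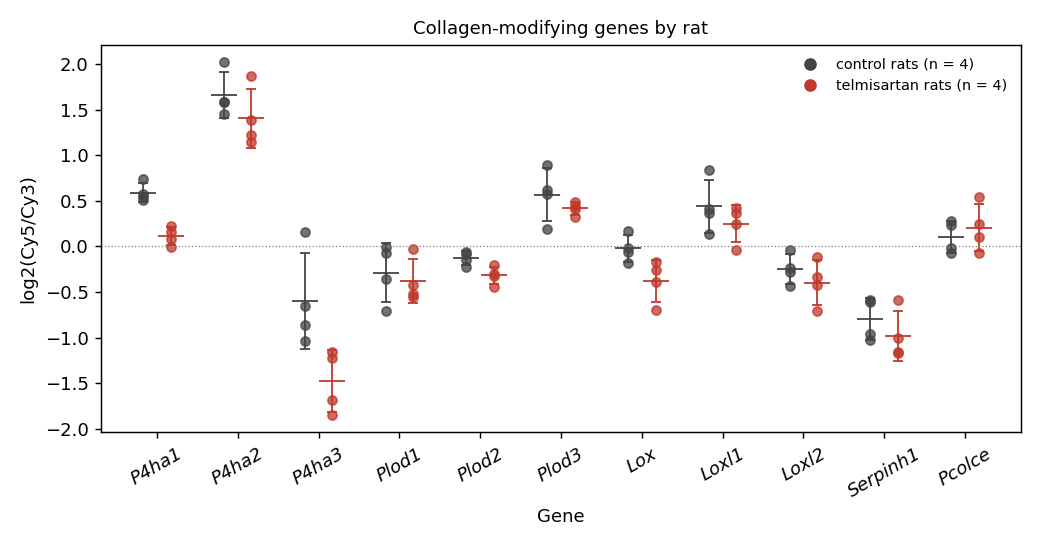
Level, log2(Cy5/Cy3), of the 11 modifying genes in each control rat (grey) and treated rat (red), with bars for the mean ± SD (n = 4). The groups stand apart for P4ha1 and P4ha3 alone, and 10 of the 11 treated means are the lower ones.

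Among fibrillar chains the groups overlapped for every gene. The 8 chains had a mean difference of -0.02, with 6 below 0, and 0 of 8 reached an unadjusted p under 0.05. Col1a1 differed by -0.30 (SE 0.22), Col1a2 by -0.11 (SE 0.32) and Col3a1 by -0.04 (SE 0.16). Col1a1 stood at 0.08 on slide 1 and -0.67 on slide 2, and dimmer Col1a1 probes gave -0.08 and -0.09. The other fibrillar chains differed by -0.0056 for Col5a1, -0.03 for Col5a2, -0.05 for Col11a1, 0.17 (SE 0.11) for Col11a2 and 0.19 for Col5a3. Averaged over the class, levels were -0.79 ± 0.11 (control) and -0.82 ± 0.21 (treated), and the difference was 0.12 on slide 1 and -0.16 on slide 2.

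The groups overlapped for every type IV chain too. Of the 4, 3 had a difference above 0: Col4a1 at 0.26 (SE 0.25), Col4a5 at 0.19 (SE 0.19) and Col4a2 at 0.14 (SE 0.12), with Col4a4 at -0.08 (SE 0.16). The mean over the class was 0.13. With the dimmer Col4a1 probe that gene differed by -0.01 and the class by 0.06. Without Telmisartan 302, the treated rat with the lowest values of Col4a1 and Col4a2, those genes stood at 0.49 and 0.24. Leaving out the lowest treated rat can only raise a difference, and the failed Col4a1 spot was still included. These 2 values therefore give no support for a rise.

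Of the other chains, Col8a1 had the largest shortfall in treated rats, with -0.37, 0.05, 0.06 and 0.24 in control and -0.71, 0.03, -0.68 and -0.07 in treated rats (limma difference -0.35, SE 0.20, adjusted p = 0.979). The treated rats formed a low pair, 302 and 305, and a pair within the control range. Col7a1 differed by 0.26 (SE 0.15) and Col6a3 by 0.22 (SE 0.12), both overlapping, and Col6a3 stood at 0.44 on slide 1 and 0.0086 on slide 2. Treated values of Col6a3 lay between -0.45 and -0.24, a narrower band than the control range of -0.72 to -0.27. The remaining chains, Col6a1, Col6a2, Col9a1, Col9a2, Col9a3, Col15a1, Col16a1, Col18a1 and Col23a1, differed by -0.08 to 0.11.

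**Figure D4:**
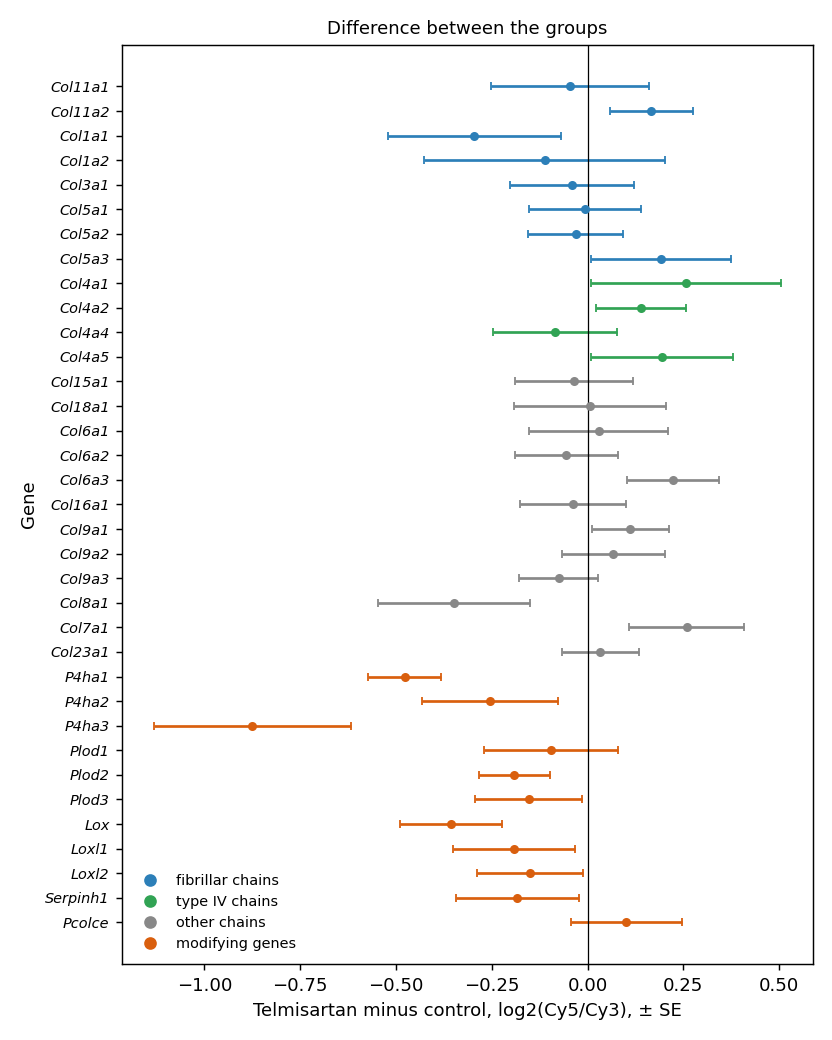
Limma difference in log2(Cy5/Cy3), telmisartan minus control, with SE for each of the 35 genes, coloured by class. The modifying genes lie left of 0 except Pcolce, with P4ha3 at -0.88 and P4ha1 at -0.48, while the chains lie on both sides of 0.

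Where a gene had several probes, they often differed more than the groups did. Of 14 genes with more than 1 probe kept, the difference had 1 sign in all probes for 8 and the control level for 9. The 3 Col1a1 probes had control levels of -1.77, -1.14 and -0.61, from the brightest to the dimmest, although all are named for the same gene. Their first 30 bases are given because the size of the type I shortfall depends on which is read.
Col1a1, brightest: aacttagtttttatctttgaccaactgaac
Col1a1, second: gacattggtgccccagaccaggaattcgga
Col1a1, dimmest: aatacaaaaccaccaagacctcccgcctgc
In every rat the brightest probe was the lowest. Raw Cy5 of that probe ran from 22914 to 56419, and that of the brightest Col1a2 probe from 41840 to 91722, with 0 arrays flagged as saturated. The second Col1a2 probe had a control level of -0.93 against -0.69, and it did not show the split by slide: its slide means were -0.82 and -0.96, where the brightest gave -0.29 and -1.20.

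**Figure D5:**
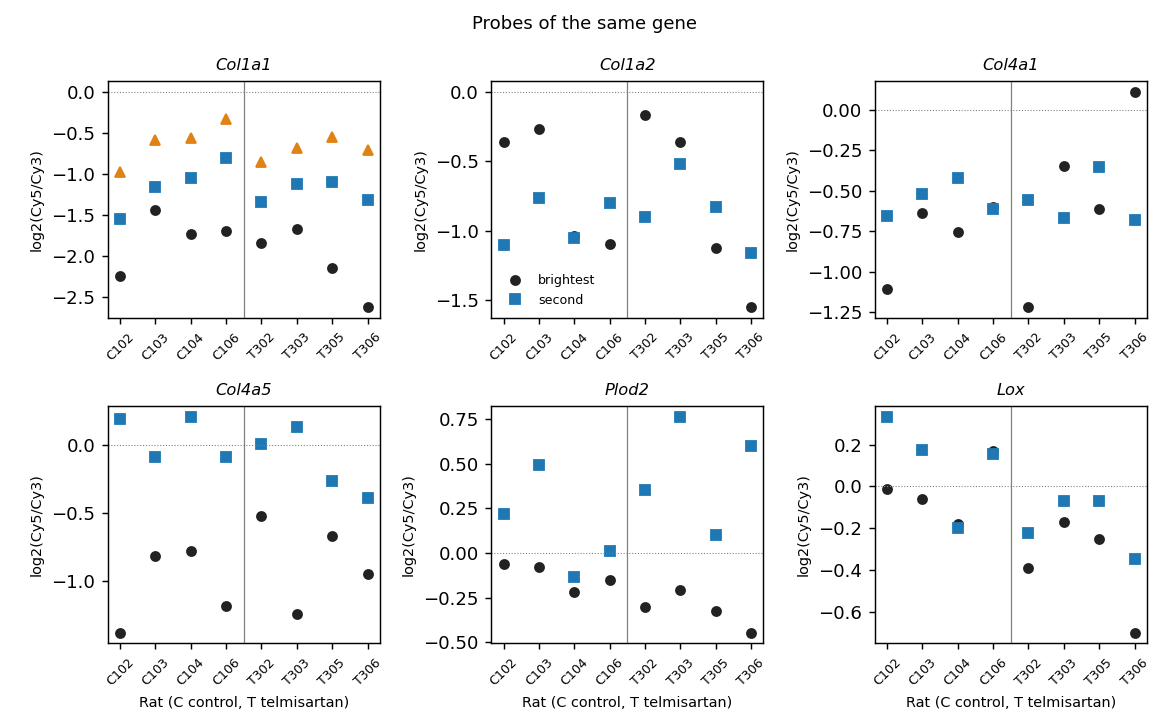
Level, log2(Cy5/Cy3), of each kept probe of 6 genes in the 8 rats (C, control; T, telmisartan), with markers from the brightest to the dimmest probe. The Col1a1 probes are stacked in the same order in every rat, the brightest Col4a1 probe leaves the rest at T306, and the Plod2 probes differ in sign between the groups.

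Other genes of the collagen pathway were counted from lists. Further maturation factors numbered 15. Of these, 7 had a difference below 0, where 50.4% of all genes did, and 8 had one above 0, with a median of 0.01. At an unadjusted p under 0.05, 0 of the 15 were lower and 1 was higher. Of all genes 2.08% were lower and 2.74% higher at that threshold. That gene was P4hb, the disulfide isomerase that forms prolyl hydroxylase with the catalytic subunits, at 0.40. It was thus on the other side of 0 from P4ha1 and P4ha3. P3h1, the prolyl 3-hydroxylase, differed by -0.30, the lysyl oxidase Loxl3 by 0.20 and Adamts3, a propeptide protease, by -0.14, with overlap in each.

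Of 11 proteins that bind fibrils, 3 were lower and 1 higher at that threshold, where 2.08% of all genes were lower and 2.74% higher. Thbs2, a thrombospondin that governs fibril shape, differed by -1.07, Postn, or periostin, by -0.40 and Bgn, or biglycan, by -0.35. Ogn, the small proteoglycan osteoglycin, was higher by 0.51, with every treated rat above every control, as for 1.50% of all genes. Among 12 basement membrane genes other than collagens, 0 were lower and 3 higher, against the same 2.08% and 2.74% of all genes. Nid1, which bridges laminin and type IV collagen, differed by 0.66, with -0.50, 0.18, -0.0079 and 0.22 in control and 0.65, 0.69, 0.81 and 0.38 in treated rats, and no overlap. Lama2 differed by 0.30 and Lamc3, seen on 3 control arrays, 1 treated array and 0 reference arrays, by 0.31, and Lama5 by -0.21.

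Of 7 collagen receptors and of 8 genes of collagen breakdown, 0 passed in either direction, where 2.08% of all genes were lower and 2.74% higher. Ddr1 differed by 0.20, Itgb1 by -0.12 and Mrc2, an uptake receptor, by -0.07, and Itga2 was not well above background on any treated array. Timp2, a protease inhibitor, differed by -0.41, Ctsk by -0.16, Timp3 by 0.15 and Mmp8 by -0.09. Among profibrotic signals, Ccn2, a matricellular target of TGF-beta, differed by -0.94, with an unadjusted limma p under 0.05. For Ccn2 every treated rat lay below every control, as for 1.22% of all genes. The receptor Tgfbr1 differed by -0.21 and the inhibitor Smad7 by -0.35. After adjustment over all genes 0 of these listed genes passed in limma.

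Markers of several cell types were read beside the modifying genes. Of all genes 50.4% were lower in treated rats, and 1.22% had every treated rat below every control. Macrophage and T cell markers were lower in treated rats for 8 of 8 genes, with means of 1.00 to 2.22 in control and 0.61 to 1.94 in treated rats, and Itgam at -0.55 and every treated rat below every control. Fibroblast markers were lower for 6 of 9, with means of -0.23 to 0.09 and -0.49 to 0.16, and Mfap5 at -0.56 with every treated rat below every control. Endothelial markers were lower for 5 of 8, with means of -0.67 to -0.23 and -0.61 to -0.19, and smooth muscle markers for 2 of 7. Basal epithelial markers were higher for 4 of 4, with means of -2.07 to -0.87 and -1.30 to -0.54. The part of these cell types in the lower levels of P4ha1, P4ha3 and Lox was not tested.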

How the data were processed

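Ventral prostate RNA of 8 TRAP rats was hybridised against F344 reference RNA, 1 array per rat. Per the file headers, the arrays were read with Agilent Feature Extraction 9.1. The deposited files hold mean spot intensity and local background intensity in each channel, uncorrected. The scanner's log10 ratio is deposited too, background-subtracted and dye-normalized per the file headers, and the series values match it. From the intensities, log2(Cy5/Cy3) was computed with normexp (offset 50) and loess within arrays (limma 3.58.1, R 4.3.3). Control and outlier spots were left out. Probes well above background in either channel on 4 of 8 arrays were kept (27734 of 41012), and the brightest probe of a gene was used. Probes were named through RefSeq (GRCr8): an accession settled 10726, the present symbol 5580 and a former symbol 3729, while 20977 carry the name in the file. Groups were compared with lmFit and eBayes, two-sided. The same fit was also run on data simulated from the means and spreads of these genes. Depth is known only as spots above background, and the number of arrays limits precision.

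All 35 genes are named. Values of each rat are given for genes whose groups do not overlap, whose unadjusted p is under 0.05, or that are chains of types I, III or IV, Lox, Plod2, P4ha1 or Serpinh1, with P4ha2, Col8a1 and Nid1 added after their values were seen. Of each other list, up to 4 genes with the smallest p are named. A result of the profibrotic list is not reported here, so no count is given for that list. The genes and lists were chosen with earlier results of these data known. Alternatives covered background, scaling, filter, probes, channel, slide, variance, weights and each rat left out; reading Col4a1 by its dimmer probe and other genes by their second probe was added after seeing the data. Adipocyte markers were lower for 3 of 3 genes and luminal markers for 4 of 7, where 50.4% of all genes were.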

Additional observations from a re-analysis of the deposited data

Results flagged for a closer look

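Within groups of 4 rats, 3 of 78 sets of values held a rat far from the others, and chance gives about 1 in 20. Telmisartan 306 had 0.31 for Col4a4 where the other treated rats had -0.36 to -0.25; Col4a4 was above background on 1 treated array. Control 103 had -0.049 for Col9a1 where the other controls had -0.28 to -0.27. Telmisartan 302 had -0.17 for Col9a2 where the other treated rats had 0.20 to 0.23.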

How the results depend on the processing

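The 35 genes were recomputed under 23 alternatives. In all of them 0 genes had an adjusted p under 0.05 in limma, and 14 kept the sign of their difference. P4ha1 and P4ha3 had an unadjusted p under 0.05 in 23 of 23 and Lox in 18 of 23. For P4ha1 and P4ha3, with 1 kept probe each, settings that choose among kept probes could not change the values. Those settings therefore add nothing to the count. With median centring 0 genes lay below and 9 above 2-fold in all control rats (3 and 1 with loess). The median of all genes was 0.66 in that setting, and the share of all genes past 2-fold there was not counted. The 9 are therefore not a result about these genes. The fibrillar minus type IV gap turned to 0.22 in control and 0.20 in treated rats with median centring. The mean of all probes left 1 gene below 2-fold and a control gap of -0.37; the second-brightest probe left 1 gene and a gap of -0.53. With types IV, XV and XVIII the control gap was -0.48. Genes higher at an unadjusted p under 0.05 numbered 1 in the Cy5 channel alone, 2 with array weights, and 1 on slide 1 and 1 on slide 2 alone (0 in the comparison as reported). In the Cy5 channel alone the type IV mean difference was -0.35, with the failed Col4a1 spot in it at -1.66 for that gene. All genes with an unadjusted p under 0.05 numbered 1126, and 1959 with no filter on dim probes, 2601 with array weights and 472 on slide 1 alone. With any 1 rat left out, the count over all genes ran from 672 (without Telmisartan 306) to 2024 (without Control 103), and was 1775 without Telmisartan 305. The adjusted count over all genes was 0 to 1, and was 1 without Control 102 or Telmisartan 303. Of the 35, 2 to 6 were lower, with 5 without Control 102 and 6 without Telmisartan 303, and 0 to 4 higher, with 1 without Control 104 and 4 without Telmisartan 302. Modifying genes below 0 numbered 10 to 11 with a mean of -0.30 to -0.21, fibrillar chains stood at -0.09 to 0.07 and type IV chains at 0.04 to 0.20, and the gap ran from -0.30 to -0.22 in control and -0.50 to -0.23 in treated rats. The cause of these shifts was not tested. No paired analysis was possible because the rats' numbers differ between the groups. Each slide holds 2 rats of each group, and with the slide as a block 4 of the 35 genes were lower at an unadjusted p under 0.05, Plod2 among them, 0 were higher, and the count over all genes was 1421. Signal over background limits Col4a4, Col9a3, Col23a1 and the dimmer probes.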
